A study of Oreochromis niloticus with 16 samples.

Results

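The hairpin mir-101b of Nile tilapia (Oreochromis niloticus) gave reads from both of its arms, and the arm that dominated was not the same in all libraries. The 3p arm held the majority of the reads in 14 of the 15 libraries that had at least 50 reads over both arms. The 5p arm held it in 1 library, red muscle of the male, with 67.5% of the reads there against 15.1% in red muscle of the female. Per reads of the library, the level of miR-101b-5p was similar in both red muscle libraries, while that of miR-101b-3p was 12.9-fold higher in the female. Scaled with DESeq2 size factors, miR-101b-5p was 1.75-fold higher in the male and miR-101b-3p 6.62-fold higher in the female, and the 5p share does not depend on the scaling.

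The members are all deposited entries named miR-101 with an optional letter, of either arm and from any locus. This rule found 2 mature arms, miR-101b-5p and miR-101b-3p, of 734 mature entries, and both belong to 1 hairpin of 368. No second copy of the hairpin and no miR-101 without the letter b were among the named entries. The hairpin was chosen by its 5p shares and its levels in these same 16 libraries, so the values here are a description and no test was made on them. Reads on the 5p arm were compared with the reads on both arms, which is the 5p share, and levels are given in CPM, the reads of an arm per 1000000 reads of the library.

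A miRNA hairpin is cut by the enzymes Drosha and Dicer into a short duplex of its 5p and 3p strands, and usually one strand is loaded into an Argonaute protein while the other is degraded. The ratio of the arms in a library of small RNAs is therefore used as a measure of arm usage, although it also carries any difference in how well each strand is captured and sequenced. In vertebrates the 3p strand of mir-101 is the one usually kept. In human cancer cells miR-101-3p is known to repress EZH2, the enzyme that methylates histone H3 in the Polycomb complex.

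The study sequenced small RNAs of fish of the Chitralada strain, extracted with Trizol and prepared with the Illumina TruSeq small RNA kit. Of 16 libraries, 5 were from development, namely 2 and 3 days post-fertilization (dpf), both labelled as gastrula and segmentation, then 4 dpf (pharyngula), 5 dpf (hatching) and 10 dpf (late larva). The other 11 were from adults, namely brain, red muscle, white muscle and gonad with 1 male and 1 female library each, liver and eye of mixed sex, and female heart. The methods of the study give the adults an age of 6 months, while its case study lists a greater age for male white muscle. The labels name no treatment, and each stage or tissue and sex had 1 library. Sex was read from the first letter of the titles together with the tissue list of the study. By the titles, the same female gave red and white muscle and another female gave brain and gonad, while the 4 male libraries came from 4 different fish. A difference between a male and a female library is therefore also a difference between single fish, and sex, fish and library cannot be told apart.

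Divided totals ran from 833147 to 11517367 reads, and male red muscle was the deepest library. Marker miRNAs of liver, brain, white muscle, eye and gonad were highest where their tissue was labelled. The liver list (miR-122 and miR-192) was highest in liver, the neuron list (miR-124a, miR-9 and miR-128) in both brain libraries, the skeletal muscle list (miR-1, miR-133a and miR-206) in both white muscle libraries, the eye list in eye and miR-202 in both gonads. The list of slow muscle and heart, miR-499, was highest in heart and then in female red muscle. The skeletal muscle list was much lower in red muscle than in white muscle, with 28639 CPM in the male and 27413 CPM in the female red muscle library against 307031 CPM and 278525 CPM in white muscle. Its level in red muscle was also below that at 5 dpf (55330 CPM) and 10 dpf (32736 CPM) and in heart (33833 CPM). The muscle miRNA miR-1-3p reached 189 CPM in the male and 1405 CPM in the female red muscle library. White muscle had 171908 CPM in the male and 128719 CPM in the female. The level in male red muscle was also below that in female brain (472 CPM) and male brain (238 CPM), and liver alone was lower. Female red muscle lay above both brain libraries but below both gonads, eye, heart and every stage. In contrast, miR-206-3p had 3780 CPM in male and 4292 CPM in female red muscle, against 7.53 CPM in male and 2.16 CPM in female brain. The cause of the low miR-1-3p was not tested. In tissue samples, fewer cells of a type and less of a miRNA per cell cannot be told apart.

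The 5p share was 67.5% in male red muscle (937 reads of the 5p arm and 452 of the 3p arm, Wilson 95% interval 64.9 to 69.9%). In female red muscle it was 15.1% (777 reads and 4355 reads, interval 14.2 to 16.1%). The male share minus the female share was 52.3 percentage points (Newcombe interval 49.6 to 54.9). For each read of the 5p arm there were 0.482 reads of the 3p arm in the male and 5.60 in the female. These intervals, and all others given here, cover counting error of reads only. Reads amplified by PCR carried no molecular identifiers and are not independent molecules, so the intervals may be too narrow.

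Outside male red muscle the 5p share was below 20% in every library with enough reads. Over the other 14 libraries it ran from 4.53% to 18.7% with a median of 12.3%, and pooled over them it was 13.6% (Wilson interval 13.1 to 14.2%). Ordered by share, the interval of male red muscle did not meet that of the next library, female white muscle, and the other 13 pairs of neighbours all had intervals that overlapped. Male red muscle thus stood alone at the high end, and below it no gap separated neighbours, although the ends of the series, female white muscle and male gonad, did not overlap.

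**Figure D1:**
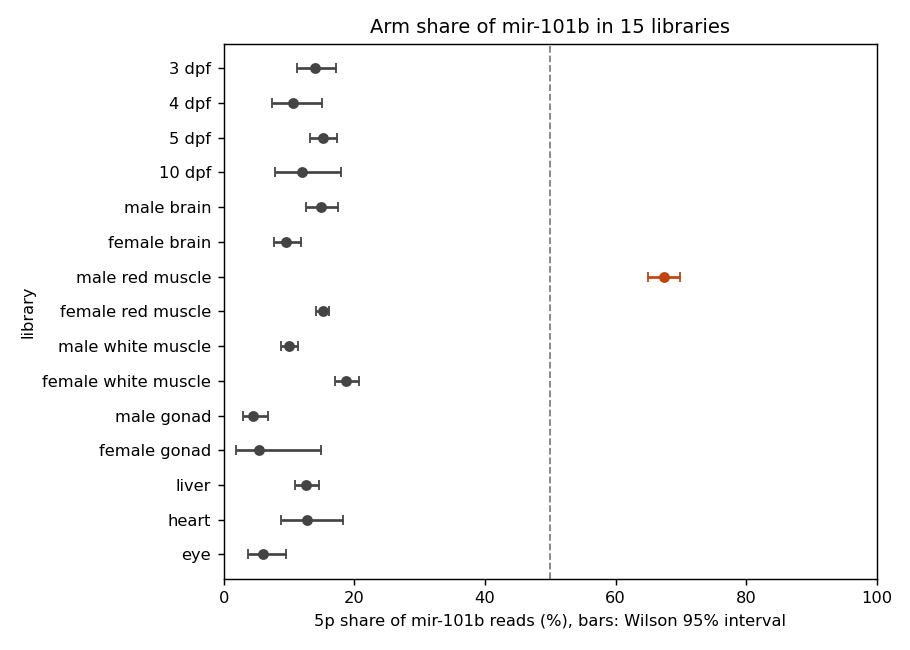
The 5p share of mir-101b reads in percent (horizontal axis) in the 15 libraries with at least 50 reads, from the stages at the top to the single-library tissues at the bottom. Points are single libraries, bars are Wilson 95% intervals and the dashed line marks equal arms. Male red muscle (67.5%) lies right of the line and the other 14 libraries lie between 4.53% and 18.7%.

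From 3 to 10 dpf the share lay between 10.6% and 15.1%, and no difference between stages was tested. It was 14.0% at 3 dpf (interval 11.3 to 17.2%), 10.6% at 4 dpf (7.38 to 14.97%), 15.1% at 5 dpf (13.2 to 17.3%) and 11.9% at 10 dpf (7.79 to 17.9%), and the intervals of all 4 stages overlapped. At 2 dpf there were 0 reads of the 5p arm and 4 of the 3p arm, too few for a share.

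The lowest shares were in the gonads and the eye. Male gonad had 4.53% (22 reads of the 5p arm and 464 of the 3p arm, interval 3.01 to 6.76%) and female gonad 5.45% (3 reads and 52 reads, 1.87 to 14.9%). The eye had 6.02% (3.74 to 9.55%). With 55 reads, female gonad was just inside the minimum of 50 reads, and 2 dpf with 4 was the library just outside it. Liver and heart lay in the middle of the order, with 12.6% (10.9 to 14.5%) and 12.8% (8.73 to 18.3%).

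White muscle and brain give the spread between a male and a female library of other tissues. In white muscle the share was 9.98% in the male (8.74 to 11.4%) and 18.7% in the female (17.0 to 20.6%), a difference of -8.76 points (-11.0 to -6.50). In brain it was 14.9% in the male (12.7 to 17.5%) and 9.50% in the female (7.61 to 11.8%), a difference of 5.43 points (2.20 to 8.65). Both intervals left out 0, and the 2 differences had opposite directions. In gonad the male minus female difference was -0.928 points (-10.4 to 3.29), with an interval that holds 0. The difference in red muscle was in the direction of that in brain and larger than both.

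As means over the male and the female library, the share was 12.2% ± 3.84 in brain, 41.3% ± 37.0 in red muscle and 14.4% ± 6.19 in white muscle (SD, n = 2 each). The red muscle mean describes neither of its libraries. Without the male library red muscle stood at 15.1%, inside the range of the white muscle pair.

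In level, miR-101b-3p differed far more between male and female red muscle than miR-101b-5p. The level of miR-101b-5p was 81.4 CPM in male red muscle (exact Poisson interval 76.2 to 86.7) and 90.2 CPM in female red muscle (84.0 to 96.8), a log2 ratio of -0.15 (-0.29 to -0.01). The level of miR-101b-3p was 39.2 CPM in the male (35.7 to 43.0) and 506 CPM in the female (491 to 521), a log2 ratio of -3.69 (-3.83 to -3.55). Male red muscle held 19.2% of all divided reads of the 16 libraries, 31.8% of all miR-101b-5p reads and 3.42% of all miR-101b-3p reads. By library total it ranked 4 from the top of all libraries for the 5p arm and 15 of 16 for the 3p arm, with 2 dpf alone below it. These ranks depend on the scaling. With size factors it ranked 1 for the 5p arm and 11 for the 3p arm, where every stage lay below it.

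The small 5p difference depends on how libraries are scaled, whereas the 3p difference keeps its direction. The log2 ratio of miR-101b-5p was -0.13 with edgeR's TMM factors, 0.81 with DESeq2 size factors and 0.050 when the 3 most abundant names of each library were left out of its total, so that its direction flips. That of miR-101b-3p was -3.67, -2.73 and -3.49 in the same order. Over the 266 entries with at least 10 CPM in either red muscle library, the median log2 ratio of male over female, taken after adding 1 CPM, was -0.58 by library total, -0.56 by TMM and 0.38 by size factors. Relative to the median entry by library total, the log2 ratio of miR-101b-5p lay at 0.43 and that of miR-101b-3p at -3.08.

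miR-101b-3p was near the bottom of all entries in this comparison. Since mir-101b was chosen by its shares and levels in these libraries, nothing is read from that rank. Only 5 of the 266 had a lower ratio after adding 1 CPM, against 164 for miR-101b-5p. They were miR-144-3p (132 CPM in the male and 3231 CPM in the female), miR-722-5p (3.21 and 84.4), miR-144-5p (295 and 4448), miR-301b-3p (7.03 and 115) and miR-24-5p-4 (9.20 and 129). The 3p arms of the related hairpins mir-148a and mir-152 followed a few places above, with miR-148a-3p at 14.8 CPM in the male and 185 CPM in the female and miR-152-3p at 55.5 CPM and 655 CPM. Over all entries the median was -0.58 for the 141 from 5p arms and -0.57 for the 125 from 3p arms. Of the 20 lowest entries 13 came from 3p arms, which is 65.0% against 47.0% of the 266. These entries are not independent, since miR-142a-3p, miR-19a-3p, miR-722-3p, miR-736-3p and miR-30e-5p are repeated there at different loci. The chosen miR-101b-3p is itself among the 13, so nothing is read from this percentage.

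Of the marker lists, some were lower and some higher in male red muscle. By library total 181 of the 266 entries, or 68.0%, were lower in the male, and by size factors 38.7% were, so that counts of lower names are read against these percentages. The list of red blood cells (miR-451 and miR-144, which are made in erythroid cells) summed to 3723 CPM in the male and 16962 CPM in the female, a log2 ratio of -2.19, with 5 of 6 names lower in the male and miR-451-3p-2 at 0 there. Epithelial names (miR-200a, miR-203 and miR-205) summed to 73.5 CPM and 246 CPM, a log2 ratio of -1.74, with 7 of 8 lower in the male and miR-205-3p and miR-205-3p-2 at 0 there. With size factors the log2 ratios of these lists were -1.23 and -0.78, so that both stayed lower in the male.

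Other lists kept that direction, lost it with the scaling or did not share it. The liver and eye lists were also lower in the male by library total, TMM and size factors. Their log2 ratios were -1.82 and -1.61 by library total and -0.86 and -0.65 with size factors. The liver sums were low, with 2.69 CPM in the male and 9.52 CPM in the female. Lower in the male were 2 of 4 liver names and 5 of 9 eye names, while 2 liver and 4 eye names were at 0 in the female. The eye name miR-183-5p was nearly level by library total, with 39.4 CPM in the male and 40.6 CPM in the female. The endothelial arms of miR-126 summed to 25072 CPM in the male and 39335 CPM in the female, a log2 ratio of -0.65, close to the median entry, and with size factors it was 0.31. The sum of the neuron list was higher in the male, with 958 CPM against 483 CPM in the female. Its log2 ratio was 0.99 by library total and 1.95 with size factors. That sum rests largely on miR-128. In whole-number reads, not scaled to depth, mir-128-1 had 10473 in the male and 3580 in the female, and mir-9-1 had 507 and 486. Of the 15 names of the neuron list, 5 were lower in the male, but 8 were at 0 in the male and 7 at 0 in the female. A name at 0 in the female cannot be lower in the male. The most specific name of the neuron list, miR-124a-3p, had 1.04 CPM in the male and 1.97 CPM in the female. The skeletal muscle list had nearly equal sums by library total, a log2 ratio of 0.063, with 5 of 7 names lower in the male. With size factors its log2 ratio was 1.02, higher in the male. In whole-number reads, not scaled to depth, mir-133a-1 had 290528 in the male and 193571 in the female. Within this list miR-1-3p was 7.42-fold higher in the female, and its log2 ratio was -2.89 by library total and -1.93 with size factors. For miR-499, which marks slow fibres, the sums were 3575 CPM in the male and 8383 CPM in the female, a log2 ratio of -1.23 by total and -0.27 with size factors. The part of these differences, of depth and of the single library in the arm share was not tested.

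**Figure D2:**
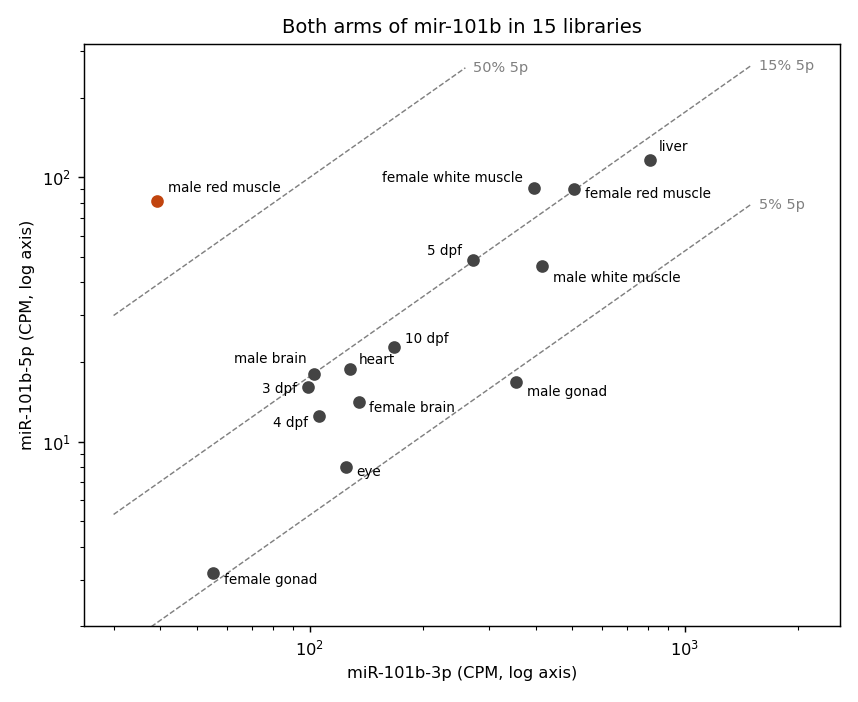
Level of miR-101b-5p (vertical axis, CPM, log scale) against that of miR-101b-3p (horizontal axis, CPM, log scale) in the 15 libraries with a 5p read. Points are single libraries and dashed lines mark 5p shares of 5%, 15% and 50%. Male red muscle lies at the left, with 81.4 CPM of the 5p arm and 39.2 CPM of the 3p arm, and the other libraries follow the band between the lower lines or lie close to it.

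Apart from male red muscle, the levels of the arms moved together over the libraries. Over all 16, Pearson's r of log2(CPM + 1) was 0.80 and Spearman's rho 0.69. Without male red muscle they were 0.93 and 0.86 over 15 libraries. Part of the likeness comes from 2 dpf, where both arms were near 0, since without it r was 0.59 and rho 0.62 over 15 libraries, and without 2 dpf and male red muscle 0.90 and 0.83 over 14. Both arms of a library share its depth and its total, so that these values are a description.

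miR-101b-3p, the usual arm, was most abundant in liver with 808 CPM (761 to 858). Female red muscle had 506 CPM, male white muscle 417 CPM (398 to 436) and female white muscle 397 CPM (376 to 418), the last 2 with overlapping intervals. Male gonad followed with 355 CPM (323 to 389). Brain was lower than white muscle and female red muscle, with 103 CPM in the male (95.1 to 111) and 135 CPM in the female (125 to 145), and heart with 128 CPM and eye with 125 CPM had intervals that overlapped that of female brain. Female gonad had 55.2 CPM (41.2 to 72.4), and its interval overlapped that of male red muscle. Of the 15 pairs of neighbours in this order, 9 had overlapping intervals. Leaving out 2 dpf, the highest level was 20.6-fold the lowest. Liver led by library total, by size factors and without the 3 most abundant names, but with TMM factors female red muscle led at 772 CPM against 484 CPM in liver.

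In white muscle and brain the miR-101b-3p levels of the sexes were close. By library total the log2 ratio of male over female was 0.07 in white muscle (-0.03 to 0.17) and -0.40 in brain (-0.55 to -0.24). Gonad differed more, with a log2 ratio of 2.68 (2.27 to 3.13), which is 6.42-fold higher in the male. With size factors the ratios were 0.26 in white muscle (0.16 to 0.37), -0.53 in brain (-0.68 to -0.38) and 2.17 in gonad (1.76 to 2.61). As means of the male and the female library, miR-101b-3p was at 119 ± 22.9 CPM in brain, 272 ± 330 CPM in red muscle and 407 ± 14.2 CPM in white muscle (SD, n = 2 each). Both brain libraries lay below both white muscle libraries under each of the 4 scalings. In red muscle the spread between the 2 libraries was larger than the mean. No order between red muscle and another tissue held for this arm under each of the 4 scalings. Liver lay above both red muscle libraries by library total, by size factors and without the 3 most abundant names, but not with TMM factors.

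miR-101b-5p, the usually discarded arm, was below the 3p arm in every library but male red muscle. It was at 116 CPM in liver (98.8 to 136), 91.5 CPM in female white muscle (81.8 to 102), 90.2 CPM in female red muscle and 81.4 CPM in male red muscle, and neighbours among these 4 had overlapping intervals. Male white muscle had 46.2 CPM (40.0 to 53.1), a log2 ratio of -0.99 to the female (-1.25 to -0.73). At the low end were eye with 7.98 CPM (4.56 to 13.0) and female gonad with 3.19 CPM (0.657 to 9.31) from 3 reads. Heart had 18.7 CPM, male brain 18.0 CPM, female brain 14.2 CPM and male gonad 16.8 CPM, all with overlapping intervals. The log2 ratio of male over female was 0.35 in brain (-0.09 to 0.79) and 2.40 in gonad (0.67 to 4.78), the second resting on 22 and 3 reads.

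By library total and by TMM, miR-101b-5p in male red muscle lay within the range of the other muscle libraries. It was above all 3 of them with size factors and without the 3 most abundant names of each library. Its means were 16.1 ± 2.72 CPM in brain, 85.8 ± 6.27 CPM in red muscle and 68.8 ± 32.0 CPM in white muscle (SD, n = 2 each). The brain libraries lay below all 4 muscle libraries under each of the 4 scalings. Of the 15 pairs of neighbours in the order, 13 had overlapping intervals, and leaving out 2 dpf the highest level was 36.5-fold the lowest. The leading library was liver by total and without the 3 most abundant names, female red muscle by TMM and male red muscle by size factors.

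**Figure D3:**
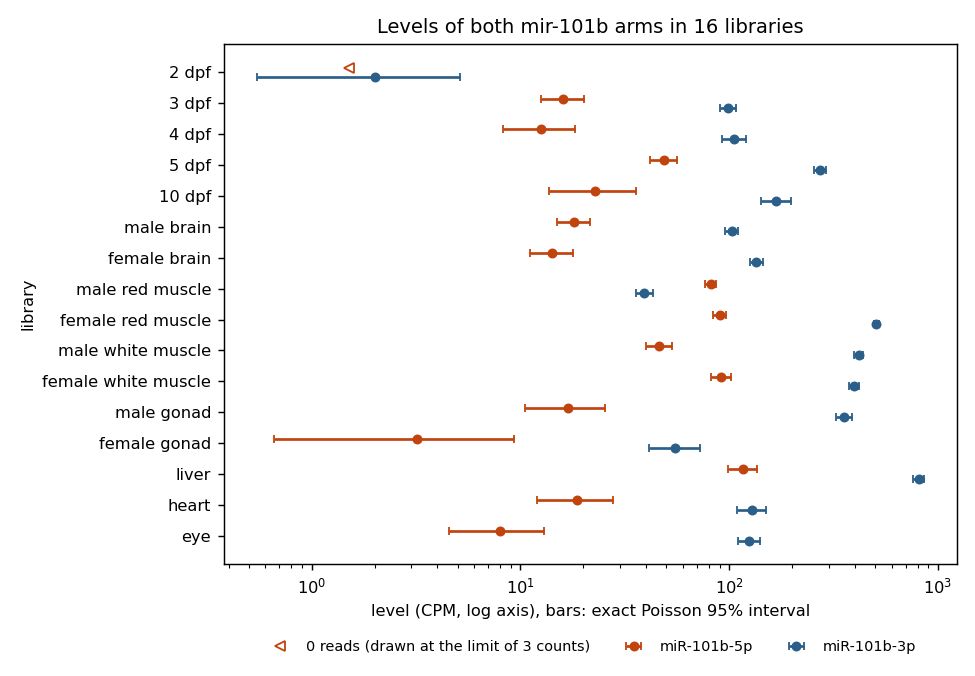
Levels of miR-101b-5p and miR-101b-3p in CPM (horizontal log axis) in all 16 libraries. Points are single libraries, bars are exact Poisson 95% intervals and the open triangle is the limit of 3 counts for the 0 reads of the 5p arm at 2 dpf (1.51 CPM). The 3p point lies right of the 5p point in every library with 5p reads except male red muscle.

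Through development, by library total, both arms were barely present at first and clearly present by 3 dpf. At 2 dpf miR-101b-3p had 2.01 CPM (0.548 to 5.15). For the 0 reads of miR-101b-5p the exact Poisson interval reached 1.855 CPM, and the limit of 3 counts was 1.51 CPM. At 3 dpf the 3p arm had 98.8 CPM (89.9 to 108), at 4 dpf 106 CPM (92.5 to 120), at 5 dpf 272 CPM (255 to 289) and at 10 dpf 168 CPM (141 to 198). The 5p arm had 16.03 CPM at 3 dpf, 12.5 CPM at 4 dpf, 48.5 CPM at 5 dpf (41.7 to 56.1) and 22.8 CPM at 10 dpf (13.7 to 35.6). Both arms were thus highest at 5 dpf by library total. The order of the last 2 stages was not the same under each scaling. With TMM factors miR-101b-3p had 105 CPM at 10 dpf and 85.4 CPM at 5 dpf, and with size factors 43.8 CPM and 63.9 CPM. No interval was computed for these values, so a difference beyond counting error is not claimed. The TMM levels are approximate, since the factors came from whole-number counts and were applied to divided totals. The size of the rise from 2 to 3 dpf depends on the scaling too. For miR-101b-3p these stages had 5.99 and 57.6 CPM with TMM factors, and 15.3 and 47.2 CPM with size factors. Each stage was 1 library.

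Neither arm was among the abundant miRNAs. Over all libraries miR-101b-5p took 0.00492% and miR-101b-3p 0.0221% of the divided reads. By level, miR-101b-5p was the 96th mature name in male red muscle and the 111th in female red muscle. miR-101b-3p was the 121st in male and the 68th in female red muscle. The order of the arms among all names was thus turned round between the 2 libraries.

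Other hairpins were followed in the same way to place mir-101b among them. In the comparison of male and female red muscle, 202 hairpins had at least 50 reads in both libraries, and the major arm differed in 13 of them, mir-101b included, which is 6.44%. Since mir-101b was chosen by this contrast, nothing is read from its place among the 13. Several of the others share reads between near-identical copies, such as mir-18a-1 and mir-18a-2 or the 4 copies of mir-199a. The median absolute difference of the 5p share was 0.367 points over the 202, of which 155 had under 10% or over 90% in both libraries and so had little room to differ. mir-18a-1 and mir-18a-2, which share their 59 reads in the male, were the 2 with a larger difference than mir-101b, both with 28.8% in the male and 93.6% in the female.

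Differences went to both arms. Over the 202 hairpins, those of at least 20 points were higher in the male for 4 hairpins and lower in the male for 8. The 5p share of mir-152 was 92.5% in the male and 47.3% in the female, while that of mir-33 was 10.6% in the male and 53.0% in the female. The major arm differed in 1 of 186 hairpins in white muscle, in 5 of 230 in brain and in 3 of 140 in gonad.

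**Figure D4:**
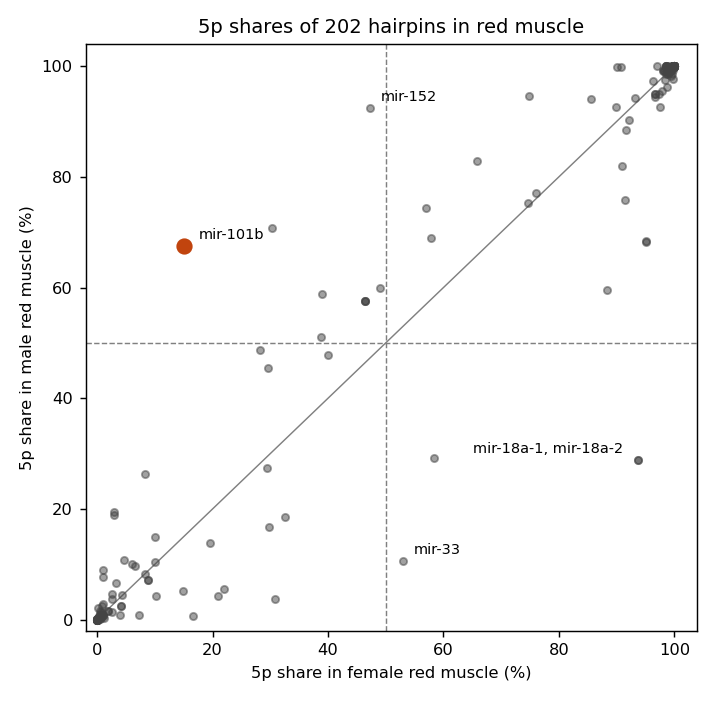
The 5p share in male red muscle (vertical axis, percent) against that in female red muscle (horizontal axis, percent) for the 202 hairpins with at least 50 reads in both. Points are hairpins, the solid line marks equal shares and the dashed lines mark equal arms. mir-101b lies in the upper left with 67.5% in the male and 15.1% in the female, and most hairpins lie in the corners on the solid line.

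Against the median of the other libraries, male red muscle deviated by 55.2 points in mir-101b. Of 191 hairpins compared this way, mir-18a-1 and mir-18a-2 deviated more, both by -55.6 points, and the median absolute deviation was 0.752 points. The choice of mir-101b used these shares, so nothing is read from its place there. Deviations of at least 20 points went to the 5p arm in 8 hairpins and to the 3p arm in 16, together 12.6% of the 191. In the other libraries this percentage ran from 3.57% to 17.6%, and in female red muscle it was 11.2%. After mir-101b the largest deviation to the 5p arm was that of mir-148a, with 74.4% in male red muscle and 57.0% in female red muscle against a median of 25.5% over the other libraries.

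Over all libraries, 291 hairpins had at least 50 reads in 2 or more, and the range of the 5p share had a median of 8.33 points. That of mir-101b was 62.9 points, with 26 hairpins above it. Just above were mir-190a-1 and mir-190a-2 with 63.2 points (29.6% to 92.9% over 10 libraries), and just below was mir-181a-3 with 62.4 points (37.3% to 99.7% over 16 libraries). Without male red muscle the range of mir-101b was 14.2 points, 106 of 289 hairpins lay above it, and the median was 7.42 points. The wide range of mir-101b therefore rests on that 1 library. Since mir-101b was chosen by its shares in these libraries, nothing is read from its place in either order.

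The hairpin mir-144, whose 3p strand is known in vertebrates to share seed bases with miR-101-3p, differed from mir-101b in its arm shares and in its levels. No single arm of mir-144 dominated over the libraries. Its 5p share was 69.0% in male red muscle (67.7 to 70.3%) and 57.9% in female red muscle, so that the 5p arm led in both. It was 69.8% in male brain and 37.8% in female brain, 26.1% in male white muscle and 41.8% in female white muscle, and 5.33% in liver. Heart had 29.2% and eye 8.91%, whereas the stages ran from 70.7% at 10 dpf to 97.1% at 3 dpf. The male minus female difference of mir-144 was 11.1 points in red muscle, 32.0 points in brain and -15.7 points in white muscle, which are the same directions as those of mir-101b. In gonad it was 44.3 points, against -0.928 points in mir-101b. Against the median of the other libraries, male red muscle deviated by 20.9 points to the 5p arm in mir-144. In level, both arms of mir-144 were lower in male than in female red muscle, whereas of mir-101b the 3p arm alone was lower under each scaling. Pearson's r of miR-144-3p over the 16 libraries was 0.32 with miR-101b-5p and 0.55 with miR-101b-3p.

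The names whose levels were most like those of each arm were taken from 303 other names with at least 10 CPM in at least 4 libraries, by Pearson's r of log2(CPM + 1) over the 16 libraries. For miR-101b-5p they were miR-26b-5p (r 0.92, rho 0.84), miR-210-5p (0.89 and 0.76), miR-26a-5p (0.83 and 0.69), miR-15a-5p (0.82 and 0.64) and miR-223-3p (0.82 and 0.73). For miR-101b-3p they were miR-152-3p (0.83 and 0.85), miR-15a-5p (0.83 and 0.61), miR-26b-5p (0.81 and 0.60), miR-30e-5p (0.80 and 0.50) and miR-101b-5p (0.80 and 0.69). Among these, miR-210 is known to be induced by low oxygen in mammals and miR-223 is a miRNA of myeloid cells. The median r over all names was 0.13 for the 5p arm and 0.19 for the 3p arm.

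All of these names were lowest at 2 dpf, and that library carries much of the likeness. Without it, r with miR-101b-5p was 0.85 for miR-26b-5p and 0.82 for miR-210-5p. It was 0.66 for miR-26a-5p, 0.66 for miR-15a-5p and 0.64 for miR-223-3p. With miR-101b-3p it was 0.80 for miR-152-3p, 0.59 for miR-101b-5p, 0.54 for miR-26b-5p, 0.49 for miR-15a-5p and 0.49 for miR-30e-5p. Of the 5 likest names, 2 were kept for each arm without 2 dpf, and 4 for each arm without male red muscle. The partner arm came 8th for miR-101b-5p and 5th for miR-101b-3p. The libraries share their depth and their tissues of origin, and nothing is read from these values about shared function or control.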

How the data were processed

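Small RNA libraries (TruSeq, Illumina GAIIx) were analysed from the deposited files, 1 per library. The authors deposited raw counts per arm and hairpin locus, whole numbers in which a read is counted at each locus it matches. Beside these, the authors gave estimated counts, which split a read among the loci it matches. Neither was normalized. The counting tool and the counting build were not given in the sources used here, and the submitters' processing notes name DESeq. Of 736 lines per file, 2 had no mature name and 0 reads and were left out. For mir-101b both kinds of count were equal in all 16 libraries, so its reads were not split with another listed locus. Reads from a copy missing from the list would not show in this comparison.

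The members and lists were chosen with earlier results of these data known. Shares used whole-number counts in libraries with at least 50 reads over both arms. CPM used divided counts per 1000000 of the divided total. Whole-number totals ran from 1989045 to 27503766 reads. Intervals at 95% (Wilson, Newcombe, exact Poisson, and the exact conditional interval for ratios) cover counting error only, and 0 reads were given a limit of 3 counts. No test was run. The named miRNAs are both miR-101b arms, the 5 names most like each by Pearson's r of log2(CPM + 1), the miR-144 arms and the hairpins next to mir-101b in range of the 5p share. Entries with the lowest ratios in red muscle, and other hairpins with large differences, were named after their values were seen. Alternatives were divided counts, minimums of 20 and 500 reads, whole-number CPM, TMM factors (edgeR 4.0.16), size factors (DESeq2 1.42.0, R 4.3.3), totals without the 3 most abundant names, pseudocounts of 0.1 and 10, no filter on low values, and each library left out. The TMM factors were estimated from whole-number counts but applied to CPM of the divided totals, so values with TMM are approximate. The computations were checked on simulated data. Python 3.11.15, numpy 2.4.6, scipy 1.17.1, pandas 2.3.3 and matplotlib 3.10.9 were used.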

Additional observations from a re-analysis of the deposited data

Results flagged for a closer look

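The male minus female difference of the 5p share of mir-101b did not have 1 direction over the tissues with a male and a female library. It was 52.3 percentage points in red muscle and 5.43 points in brain, both higher in the male, and -8.76 points in white muscle, lower in the male. With 1 library per sex and tissue, this difference between tissues was not tested.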

How the results depend on the processing

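The 5p shares were the same with divided counts and with all miR-101 loci summed, since 1 locus was found and its counts were whole. The 3p arm was dominant in 14 libraries at a minimum of 50 or 20 reads and in 8 at 500 reads, where fewer libraries pass, and the 5p arm in 1 at each. The log2 ratio of male over female red muscle for miR-101b-5p, -0.15 by library total, was 0.81 with size factors and 0.050 without the 3 most abundant names. For miR-101b-3p, -3.69 by library total, it was -2.73 with size factors and -3.49 without the 3 most abundant names. The cause was not tested. Of the 5 names most like miR-101b-5p, 3 were kept with log2(CPM + 10) and 2 to 5 when each library was left out in turn. Of those most like miR-101b-3p, 2 to 4 were kept when each library was left out. Without the male red muscle library, an alternative chosen after seeing the data, the highest 5p share was 18.7% and the range 14.2 points. Of all values recomputed under another setting, 297 moved by less than their spread or counting interval, 143 moved by more and 2 changed sign. Most that moved were CPM, which shift with each scaling of a library. A share from 55 reads, as in female gonad, is known only to within 1.87 to 14.9%, and 2 dpf is too shallow in mir-101b for a share. With 1 fish per sex and tissue, no value here separates sex from fish, dissection or library.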
